A study of Mus musculus with 6 samples.

Results

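The 39 Hox genes in the deposited count table were examined in 6 mouse neurofibromas, which are benign nerve sheath tumours. They were taken by symbol, as every row named Hox, a letter a to d and digits, out of 24421 gene symbols. Per the labels all 6 tumours were on a C57BL/6J background and carried floxed Nf1 (Nf1fl/fl) with the Cre driver DhhCre, which acts in the Schwann cell lineage, so that other cells in a tumour keep Nf1, whose protein restrains Ras. MiRNC149, MiRNC640 and MiRNC670, the group miR155KO_Nf1KO (n = 3), were also labelled as knockouts for miR-155, a microRNA. Nf803, Nf809 and Nf827, the group Nf1KO (n = 3), had no such label. No drug was given, and the study compared the groups to look for targets of miR-155. The age of the mice, the nerve or body level of each piece, and whether each tumour came from a separate mouse were not stated in the sources used here. The p-values therefore measure the spread between these samples, which may be in part technical.

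Hox genes encode homeodomain transcription factors that give cells a position along the head-to-tail axis. In mammals they lie in 4 clusters, Hoxa to Hoxd, and are numbered by paralogue group: low numbers are expressed from the hindbrain and neck downwards, and higher numbers only from successively more posterior levels. Neural crest derivatives, fibroblasts, muscle and neurons all keep part of this code in the adult, so a piece of tissue carries a mixture of Hox codes. Genes of groups 9 to 13 are related to the fly gene Abd-B and mark lower trunk, limb and tail levels.

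Sequences came from RefSeq tables of GRCm38.p6, the assembly that the build mm10 names. The microRNA deleted in the first group is shown with its seed, bases 2 to 8, in capitals, since a target transcript carries the complement of the seed. The mature miR-10a and miR-10b follow because their genes lie inside the Hoxb and Hoxd clusters, and the 2 share a seed. They differ by U12A, with the miR-10a-5p base first and positions counted from 1 at the 5′ end. Matching sites for miR-155-5p (AGCATTAA, AGCATTA or GCATTAA) were searched for in GENCODE M21, using the longest 3′ UTR that a gene has there.
miR-155-5p: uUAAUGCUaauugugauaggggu
miR-10a-5p: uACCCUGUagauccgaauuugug
miR-10b-5p: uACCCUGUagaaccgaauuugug
Hoxd3 site: cattttttctGCATTAAataataaaaa
Of the 39 Hox genes only Hoxd3 held such a site, shown above in capitals, at base 1146 of a 3′ UTR of 1192 bases. Among the tested genes with a 3′ UTR, 2083 of 14024 (14.9%) held one. The Hox 3′ UTRs were shorter, with a median of 966 bases against 1393. A match is a description of letters and does not show that the transcript is regulated.

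Column totals ran from 13061129 to 16333181 reads. Between replicates of a group the variance was 27.13 to 122.5 times that of Poisson sampling, and each tumour was counted on its own. The transcript of the miR-155 host gene, Mir155hg, stood at 0.201 ± 0.121 CPM (SD, n = 3) in miR155KO_Nf1KO and at 4.32 ± 0.373 in Nf1KO, which matched the labels (log2 fold change -4.34, SE 0.54, edgeR adjusted p = 0.0186). Nf1, which Cre removes only from some of the cells, stood at 341 ± 43.3 and 324 ± 33.2 CPM (edgeR adjusted p = 0.777). The Schwann cell list (10 genes, Sox10 and S100b among them) summed to between 2320 and 3720 CPM over all 6 tumours. CPM is the count scaled to 1e6 reads of the library, with library sizes corrected by TMM throughout. In bulk tissue, fewer cells of a type and less RNA per cell cannot be told apart.

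All 6 tumours expressed mainly Hox genes of paralogue groups 1 to 8, and groups 11 to 13 gave at most 3 reads in a tumour. Reads on Hox genes numbered 1810, 2192 and 1891 in MiRNC149, MiRNC640 and MiRNC670, and 1519, 1283 and 1365 in Nf803, Nf809 and Nf827. Between 23 and 29 of the 39 genes had at least 1 read in a tumour, and 8 had none in any: Hoxa13, Hoxb1, Hoxb13, Hoxc11, Hoxc13, Hoxd11, Hoxd12 and Hoxd13. A count of 0 allows up to 0.185 to 0.238 CPM, depending on the tumour (3 reads, counting error only). To compare genes with each other, CPM was divided by the length of the union of annotated exons (CPM per kb). On that scale the highest means over the 6 tumours were those of Hoxb3 (4.73), Hoxb4 (3.99), Hoxb7 (3.93), Hoxd1 (3.53), Hoxc8 (2.83), Hoxd8 (2.67), Hoxc6 (2.64) and Hoxa5 (2.57).

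**Figure D1:**
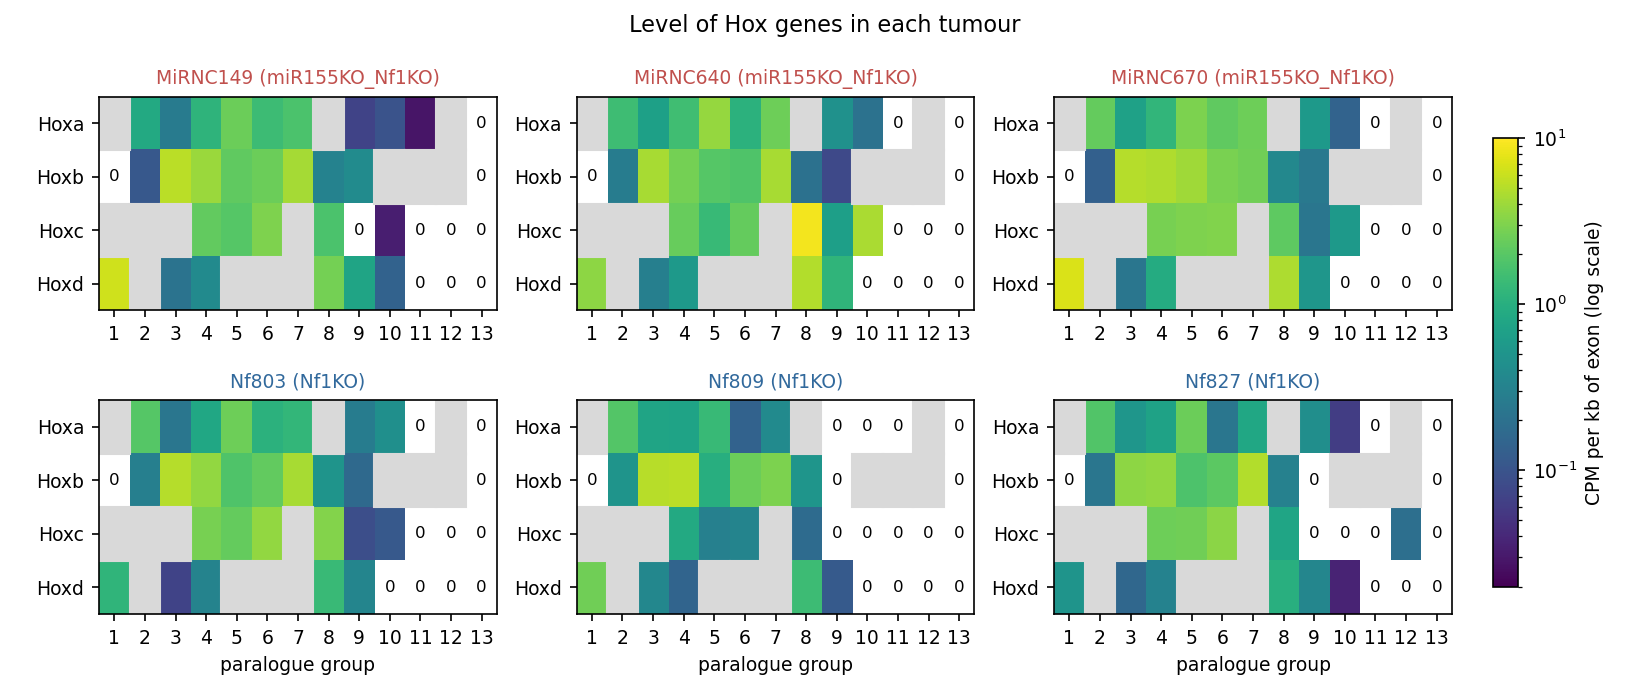
Level of Hox genes in each tumour, in CPM per kb of exon on a log colour scale, with the 4 clusters as rows and paralogue groups 1 to 13 as columns. Grey cells have no gene or are not shown, and white cells marked 0 have no read; groups 11 to 13 are almost empty in every tumour, and Hoxc8 and Hoxc10 are brightest in MiRNC640.

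The tumours differed in how far down the axis the code reached, and over all clusters the groups overlapped in this. Groups 9 to 13 gave 3.26%, 12.2% and 3.91% of the summed Hox level per kb in MiRNC149, MiRNC640 and MiRNC670, and 3.34%, 0.39% and 3.01% in Nf803, Nf809 and Nf827. By this share over all clusters, MiRNC640 had the most posterior profile and Nf809 the most anterior. Groups 1 to 3 gave 28.5%, 18.7% and 27.6% in the 3 miR155KO_Nf1KO tumours and 22.3%, 39.3% and 19.4% in the 3 Nf1KO tumours. The mean paralogue number, weighted by level per kb, was 5.96 in MiRNC640, 5.16 in Nf803, 5.11 in Nf827, 4.82 in MiRNC670, 4.8 in MiRNC149 and 4.24 in Nf809. The 4 tumours between the extremes lay close to each other, and the group ranges overlapped (5.2 ± 0.664 against 4.84 ± 0.517, SD, n = 3 each). Within the Hoxa cluster alone they did not overlap: the mean paralogue number there was 5.07, 5.06 and 4.81 in the miR155KO_Nf1KO tumours and 4.62, 3.43 and 4.45 in the Nf1KO tumours. Within Hoxb, Hoxc and Hoxd they overlapped. MiRNC640 had the highest mean paralogue number only within Hoxc (7.59). Nf827 was highest within Hoxb and Hoxd, at 5.09 and 5.83 against 4.95 and 5.38 in MiRNC640. Nf809 was lowest within each cluster. The highest group with a gene of at least 10 reads was 9 in MiRNC149 (Hoxb9 and Hoxd9) and Nf827 (Hoxa9 and Hoxd9). It was 10 in MiRNC640 (Hoxa10 and Hoxc10), MiRNC670 (Hoxc10) and Nf803 (Hoxa10), and 8 in Nf809 (Hoxb8 and Hoxd8).

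**Figure D2:**
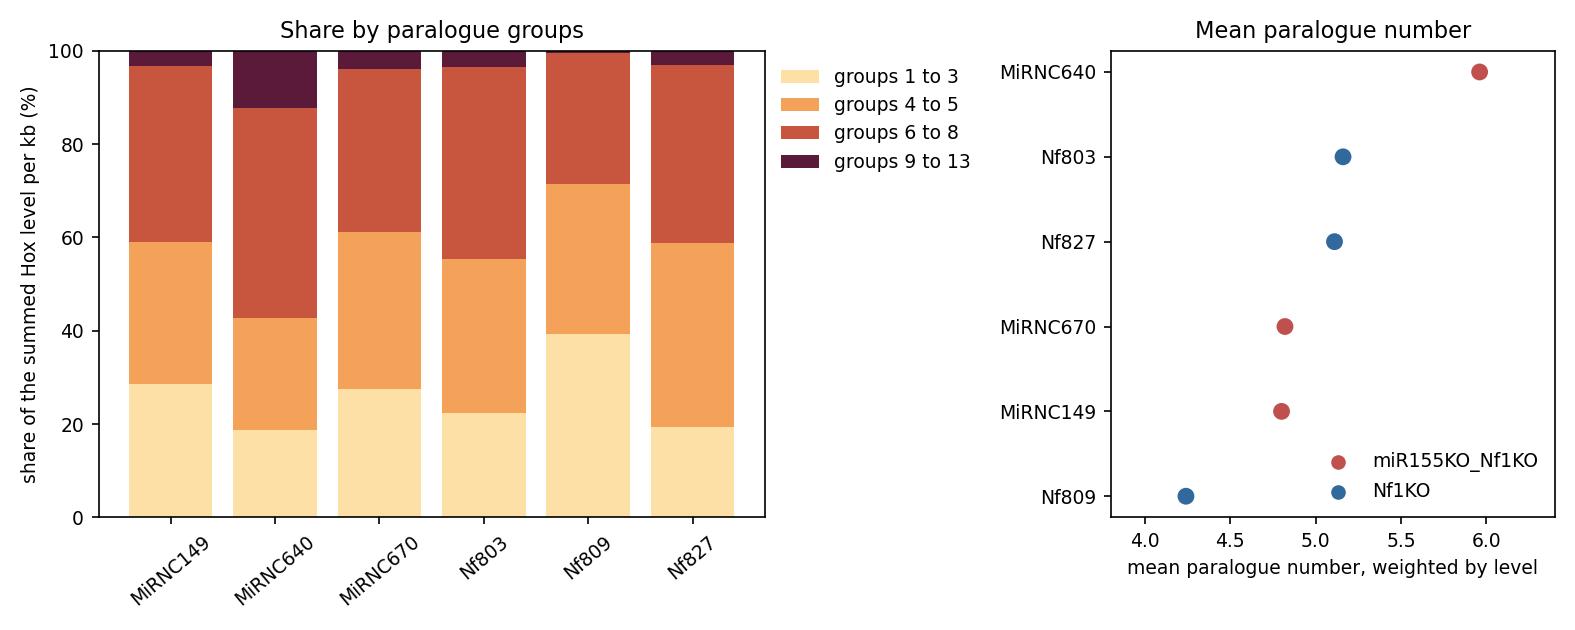
Left, share of the summed Hox level per kb (%) from paralogue groups 1 to 3, 4 to 5, 6 to 8 and 9 to 13 in each tumour. Right, the mean paralogue number weighted by level, with 1 point per tumour coloured by group: MiRNC640 lies at 5.96, Nf809 at 4.24 and the other 4 tumours between 4.8 and 5.16.

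Hoxb3, Hoxb4, Hoxb6 and Hoxb7 varied least of the tested Hox genes, with an SD of log2 CPM over the 6 tumours of 0.222, 0.329, 0.217 and 0.363. Hoxb3, which patterns the hindbrain and neck, stood at 22.5, 18.8 and 21.2 CPM in MiRNC149, MiRNC640 and MiRNC670 and at 21.4, 21.7 and 14.9 CPM in Nf803, Nf809 and Nf827. Hoxb4 stood at 10.2, 6.96 and 12.3 CPM against 9.29, 13.4 and 9.31 in the same order. Hoxb7 stood at 6.63, 6.82 and 4.04 CPM against 6.9, 4.51 and 7.5. For these 3 genes the groups overlapped, with log2 fold changes of 0.11, -0.12 and -0.11 (miR155KO_Nf1KO minus Nf1KO; SE 0.20, 0.29 and 0.33) and edgeR adjusted p of 0.776, 0.83 and 0.872. The sign of each of the 3 turned when 1 tumour was left out. Annotated exons of Hoxb3 share 52.9% of their length with the antisense gene Hoxb3os, and whether the counting used strand is not stated in the sources used here.

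The posterior part of the Hoxc cluster set MiRNC640 apart. Hoxc8, a gene of thoracic levels that also patterns brachial motor neurons, had 75, 378 and 77 reads in MiRNC149, MiRNC640 and MiRNC670 and 122, 8 and 33 in Nf803, Nf809 and Nf827, which are 4.83, 25.5 and 6.1 CPM against 8.86, 0.495 and 2.21. Its spread was the largest of the 24 tested Hox genes (SD of log2 CPM 1.81), and its group difference was within that spread (log2 fold change 1.67, SE 1.01, edgeR adjusted p = 0.348). Without MiRNC640 and Nf809 it was -0.01. Hoxc10, a gene of lumbar and hindlimb levels, had 1, 128 and 14 reads in the miR155KO_Nf1KO tumours and 3, 0 and 0 in the Nf1KO tumours. Hoxc9 was likewise highest in MiRNC640, with 0, 24 and 7 reads against 3, 0 and 0. Neither passed the filter on low counts in the fit of all 6 tumours. Hotair, a noncoding gene in the Hoxc cluster between Hoxc12 and Hoxc11 (chr15:102944062-102947730), had 16 reads in MiRNC640 and none in the other 5 tumours.

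Nf809 was low for the Hoxc cluster. Hoxc6, a gene of brachial and upper thoracic levels, stood at 0.804 CPM in Nf809 and between 5.61 and 8.86 CPM in the other 5 tumours. Hoxc5 stood at 0.927 CPM there and between 4.12 and 9.35 elsewhere, and Hoxc4 at 2.23 and between 5.73 and 7.21. Of the Hoxa genes, Hoxa9 had 0 reads in Nf809 against 6 to 41 in the others, and Hoxa6 had 2 reads in Nf809 and 3 in Nf827 against 13 to 24. Hoxb3, Hoxb4 and Hoxb6 were at or near their usual level in Nf809, with 21.7, 13.4 and 4.82 CPM. Other Hoxb genes differed in direction there. Hoxb5 stood at 2.72 CPM, the lowest of the 6 tumours, and Hoxb2 and Hoxb8 at 1.73 and 1.36 CPM, the highest. Hoxb9 had 0 reads in Nf809 and in Nf827, and 3 to 16 in the others.

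Markers of neighbouring tissue also set these tumours apart. The 8 adipocyte markers, Adipoq and Plin1 among them, summed to 2520 CPM in MiRNC640, to 45.4 in Nf809 and to between 107 and 828 in the others. None of the 8 was called between groups by edgeR or DESeq2. None had an unadjusted p under 0.05, where 26.7% of all genes had. The 10 skeletal muscle markers, Ckm and Acta1 among them, summed to 20300 CPM in Nf809, 12700 in MiRNC670 and between 102 and 2660 in the other 4 tumours. Ttn alone gave 17500 CPM in Nf809 and 10400 in MiRNC670. Ckm stood at 151 and 134 CPM in these 2 tumours, and Myh4 at 861 and 1270. Of the motor and sympathetic neuron markers, Mnx1 and Lhx3 had no read in any tumour, and Chat and Slc18a3 had 1 and 5, all in Nf827. Slc5a7 had 16, 31 and 18 reads in MiRNC149, MiRNC640 and MiRNC670 and 20, 3 and 9 in Nf803, Nf809 and Nf827. The sympathetic genes Dbh and Hand2 had 500 and 43 reads in Nf827 and at most 7 in any other tumour. Th, which acts in the same pathway as Dbh and is also made by some sensory neurons, had 295, 87 and 106 reads in MiRNC149, MiRNC640 and MiRNC670 and 26, 55 and 208 in Nf803, Nf809 and Nf827. The part of these tissues in the Hox levels was not tested.

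Between the groups, Hox RNA summed over all 39 genes stood at 117, 148 and 150 CPM in the miR155KO_Nf1KO tumours and at 110, 79.3 and 91.4 CPM in the Nf1KO tumours. The ranges did not overlap, and the ratio of the means was 1.47 (138 ± 18.7 against 93.7 ± 15.6, SD, n = 3 each). The Hoxd cluster was the only 1 of the 4 whose sums did not overlap. Its 9 genes summed to 23.2, 25.3 and 30.8 CPM against 7.84, 10.8 and 6.16, a ratio of 3.19. Hoxa and Hoxb sums overlapped between groups, with ratios of 1.46 and 1.07, and so did Hoxc with 1.73. Without MiRNC640 and Nf809, an alternative chosen after seeing the data, the ratio over all 39 genes was 1.32. By cluster it was then 3.86 for Hoxd, 1.25 for Hoxa, 1.19 for Hoxb and 0.965 for Hoxc, so the Hoxc ratio rested on those 2 tumours.

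**Figure D3:**
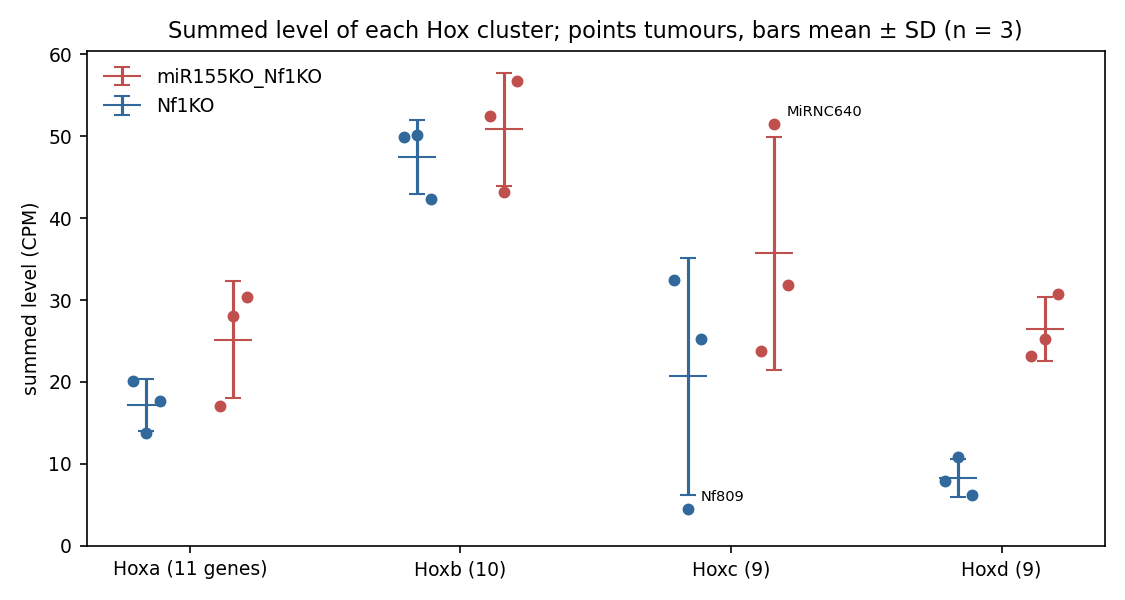
Summed level of the genes of each Hox cluster in CPM, with 1 point per tumour and bars for mean ± SD (n = 3 per group). The Hoxd sums of the groups do not overlap (23.2 to 30.8 against 6.16 to 10.8 CPM), the Hoxb sums do, and MiRNC640 and Nf809 lie at the ends of the Hoxc sums.

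Of the 39 genes, 24 passed the filter on low counts and were tested, and 15 were not: the 8 without a read and Hoxa10, Hoxa11, Hoxb9, Hoxc9, Hoxc10, Hoxc12 and Hoxd10. A gene can pass the filter through the group where it is high, so counts over the 24 describe them only. By edgeR's quasi-likelihood test with Benjamini-Hochberg adjustment over the 15604 genes tested, 1 of the 24, Hoxd8, was called at an adjusted p under 0.05, where 9.96% of all genes tested were called in either direction (5.22% higher and 4.74% lower). None was called lower, and at an unadjusted p under 0.05 there were 4 higher (Hoxd8, Hoxd1, Hoxa7 and Hoxd9) and 0 lower, against 13.5% of all genes higher by that rule. DESeq2 called 3 higher (Hoxa7, Hoxd1 and Hoxd8) and 0 lower, against 9.54% of all genes higher. The ranges of the groups did not overlap for 8 genes, all higher in miR155KO_Nf1KO (33.3% of the 24, against 16.3% of all genes): Hoxa4, Hoxa6, Hoxa7, Hoxb5, Hoxd1, Hoxd4, Hoxd8 and Hoxd9. The log2 fold change was above 0 for 18 of the 24, against 50.5% of all genes, with a median of 0.29 against 0.01. By paralogue groups, the median was 0.11 for groups 1 to 3 (7 tested) and 0.52 for groups 4 to 5 (7 tested). It was 0.84 for groups 6 to 8 (8 tested) and 1.13 for the 2 tested genes of groups 9 to 13, Hoxa9 and Hoxd9. The log2 fold changes of Hoxc8 and Hoxa9, 1.67 and 0.65, were below 0 without MiRNC640 and Nf809. The medians were not taken without those tumours. By cluster the median was 0.59 for Hoxa (8 tested), -0.11 for Hoxb (7), 0.26 for Hoxc (4) and 1.61 for Hoxd (5).

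**Figure D4:**
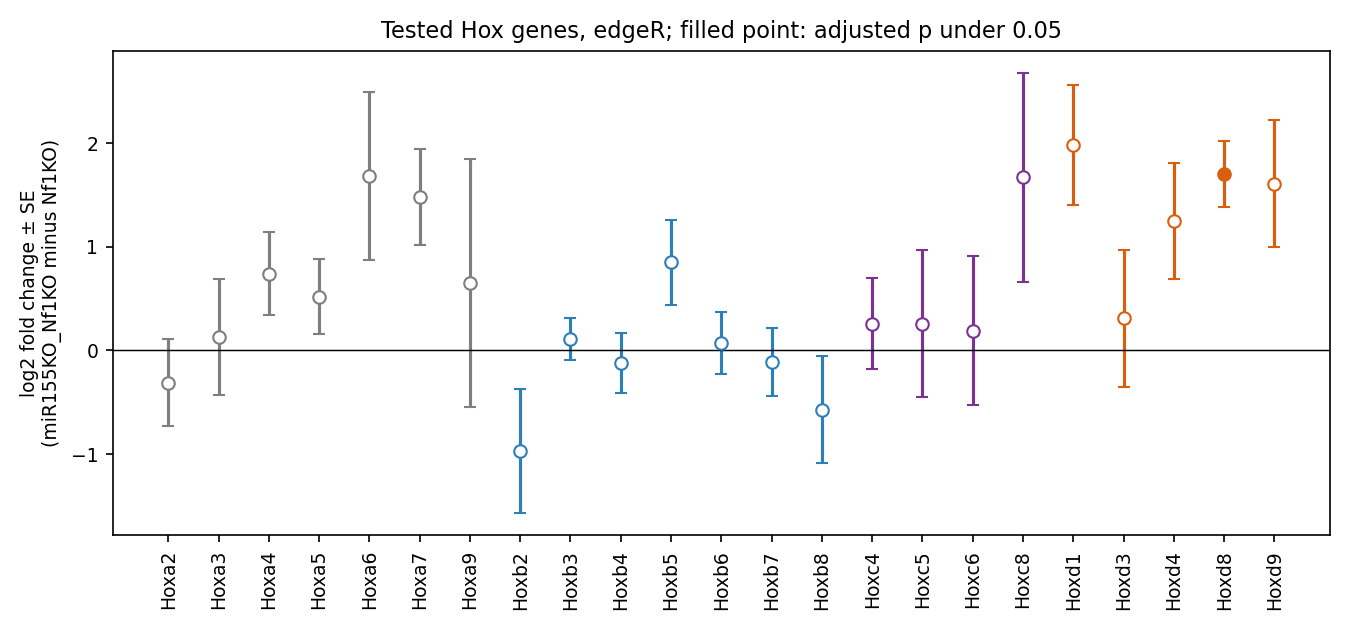
log2 fold change (miR155KO_Nf1KO minus Nf1KO) ± SE from edgeR for tested Hox genes (1 is not shown), ordered by cluster and paralogue group. The filled point, Hoxd8 at 1.70, is the gene called at an adjusted p under 0.05; all 5 Hoxd genes lie above 0 and the Hoxb genes lie on both sides.

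Hoxd8 was the 1 Hox gene of 24 tested that edgeR called higher in miR155KO_Nf1KO, where 5.22% of all genes tested were called higher. Hoxd8 encodes a factor of trunk levels and lies at chr2:74704615-74707933 on the plus strand (GRCm38, ENSMUSG00000027102.4). Its annotated exons overlap no exon of another gene. In GENCODE it lies within the span of Hoxd3os1, a noncoding gene of the opposite strand (chr2:74703248-74716130). RefSeq places Hoxd3os1 at chr2:74710044-74716130, outside Hoxd8. Hoxd8 had 115, 197 and 163 reads in MiRNC149, MiRNC640 and MiRNC670 and 51, 62 and 42 in Nf803, Nf809 and Nf827. In CPM these were 7.4, 13.3 and 12.9 against 3.7, 3.83 and 2.81. Every miR155KO_Nf1KO tumour lay above every Nf1KO tumour, and the lowest and highest of the groups were 7.4 and 3.83 CPM. The log2 fold change was 1.70 (SE 0.32, edgeR adjusted p = 0.0263), a 3.24-fold difference. Without MiRNC640 the edgeR adjusted p was 0.0773, without MiRNC670 0.108, without Nf803 0.0965, without Nf827 0.0833 and without MiRNC640 and Nf809 together 0.0607, with log2 fold changes of 1.55 to 1.73 in these fits. DESeq2 called the gene in every fit (adjusted p at most 0.0124).

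Hoxd1, at the low-numbered end of the Hoxd cluster (chr2:74762980-74765142, plus strand, ENSMUSG00000042448.5), encodes a factor that in mouse is known from nociceptive sensory neurons. It had 184, 97 and 166 reads against 30, 78 and 14 in the same order of tumours, or 11.8, 6.55 and 13.1 CPM against 2.18, 4.82 and 0.937. The groups did not overlap, and Nf809 was the nearest Nf1KO tumour to MiRNC640. The log2 fold change of 1.98 (SE 0.58) missed the threshold in edgeR (adjusted p = 0.0757) and passed it in DESeq2 (adjusted p = 0.00563). Without Nf809 it was 2.76 in edgeR (adjusted p = 0.0152).

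Hoxd9 and Hoxd4 had the same direction at low counts. Hoxd9, a gene of lower trunk levels, had 25, 37 and 14 reads against 10, 4 and 11 (log2 fold change 1.61, SE 0.61, edgeR adjusted p = 0.146). Hoxd4, a gene of the hindbrain and neck, had 18, 25 and 34 reads against 13, 7 and 14 (1.25, SE 0.56, edgeR adjusted p = 0.208). Both sets of ranges did not overlap and neither gene was called. Hoxd3 had 14, 18 and 12 reads against 4, 24 and 10, with overlapping groups (log2 fold change 0.31, SE 0.66, edgeR adjusted p = 0.809). Annotated exons of Hoxd3 and Hoxd4 share 62.8% and 52.3% of their length with each other and with neighbouring noncoding genes, so their reads are uncertain. Hoxd3 is also the gene with the miR-155 site shown above.

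The noncoding genes between them had the same direction as the Hoxd genes. Haglr, a transcript of the opposite strand that lies next to Hoxd1, had 41, 15 and 39 reads against 3, 6 and 12 (log2 fold change 2.25, SE 0.69, edgeR adjusted p = 0.0839, DESeq2 adjusted p = 0.0248). Hoxd3os1 had 9, 10 and 13 reads against 2, 2 and 2, and Mir10b, the gene of miR-10b, had 6, 5 and 5 against 1, 2 and 1. These 2 were below the filter and had no test. Reads on a microRNA gene in such libraries come from the precursor or host transcript and do not measure the mature miR-10b. Of 18 listed noncoding genes of all 4 clusters in the table, 4 were tested and edgeR called none. By edgeR 2 had an unadjusted p under 0.05, where 26.7% of all genes had. DESeq2 called 2 higher (Haglr and Mira), where it called 9.54% of all genes higher.

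The summed RNA of the sensory neuron list moved with the Hoxd cluster. The sensory neuron list (Isl1, Pou4f1, Avil, Prph and 15 others in the table) summed to 7470, 6340 and 9820 CPM in MiRNC149, MiRNC640 and MiRNC670 and to 2240, 3450 and 2010 CPM in Nf803, Nf809 and Nf827. Of its 19 tested genes 9 were called higher by edgeR, against 5.22% of all genes, and none of its markers was at 0. Isl1 and Avil were among the 9, and Pou4f1 and Prph were not (edgeR adjusted p = 0.066 and 0.105). Ntrk2 was lower (log2 fold change -0.25, edgeR adjusted p = 0.381). The largest members in miR155KO_Nf1KO were Nefl and Snap25, at 2550 ± 732 against 708 ± 303 and 2140 ± 461 against 479 ± 171 CPM. Isl1, Pou4f1, Avil and Prph had means of 15.3 to 86.1 CPM there. The order of the 6 tumours by the sum of the list was the order by Hoxd1, with MiRNC670 first and Nf827 last. The order by Hoxd8 was another, with MiRNC640 first. The Schwann cell list was also higher in the first group (3420 to 3720 against 2320 to 2710 CPM), with 2 of 10 genes called higher (5.22% of all genes). The fibroblast list was lower (4950 to 6360 against 10000 to 10700 CPM), with 3 of 10 called lower (4.74% of all genes). Its members Thy1 and Dpt went the other way, with log2 fold changes of 0.73 and 0.58 (edgeR adjusted p = 0.0567 and 0.616). DESeq2 called Thy1 higher (adjusted p = 0.00997). The part of these cells in the Hoxd levels was not tested.

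**Figure D5:**
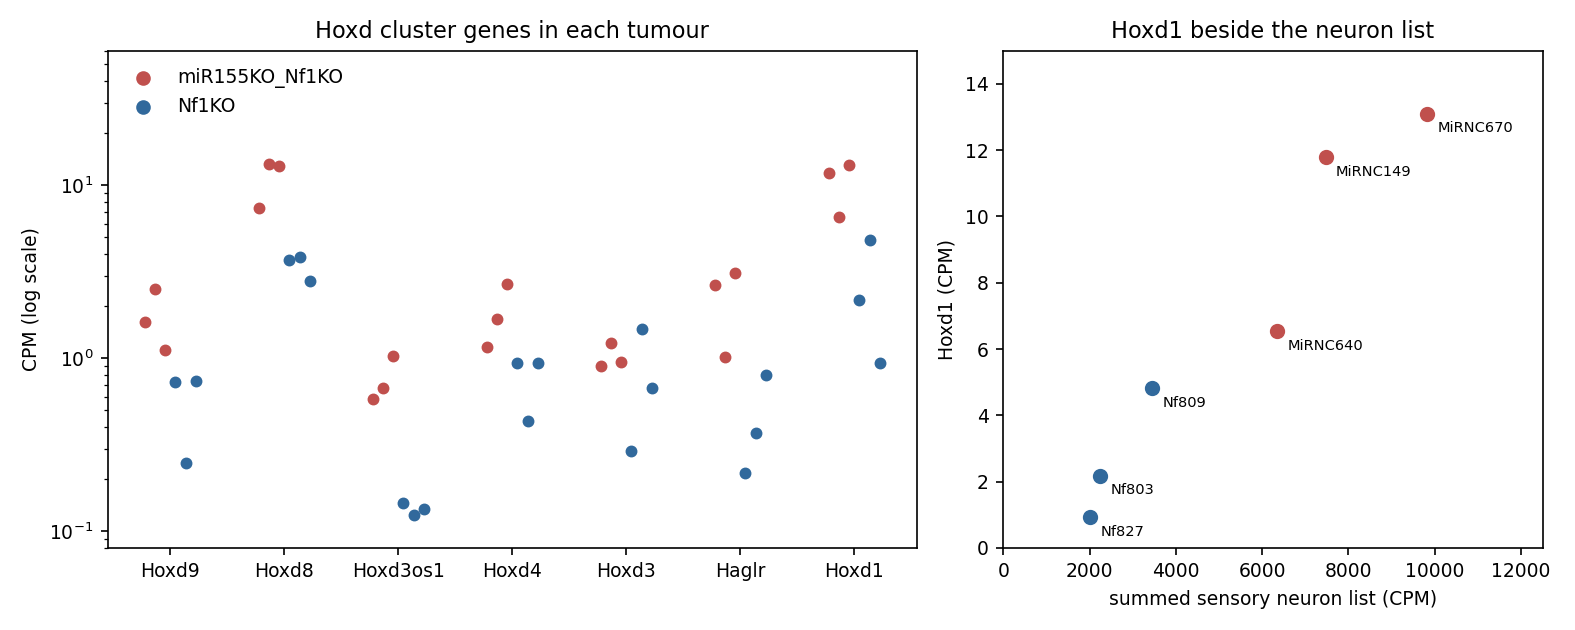
Left, level in CPM (log scale) of 5 Hoxd genes and the noncoding Hoxd3os1 and Haglr in each tumour, in chromosome order; Hoxd8 and Hoxd1 show no overlap between the groups. Right, Hoxd1 in CPM against the summed sensory neuron list in CPM, 1 point per tumour: both rise from Nf827 (0.937 and 2010 CPM) to MiRNC670 (13.1 and 9820 CPM).

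The 250 bases before the annotated starts of Hoxd8 and Hoxd1 are shown because these are the Hoxd genes with the clearest group differences. Capitals mark matches to CCAAT and to the retinoid half-site AGGTCA, searched on both strands.
Hoxd8, chr2:74704365-74704614, plus strand: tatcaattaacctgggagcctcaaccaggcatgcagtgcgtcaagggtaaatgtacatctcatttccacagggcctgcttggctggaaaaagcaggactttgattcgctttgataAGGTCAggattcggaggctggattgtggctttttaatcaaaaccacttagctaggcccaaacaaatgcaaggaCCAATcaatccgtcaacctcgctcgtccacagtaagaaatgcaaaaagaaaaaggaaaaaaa
Hoxd1, chr2:74762730-74762979, plus strand: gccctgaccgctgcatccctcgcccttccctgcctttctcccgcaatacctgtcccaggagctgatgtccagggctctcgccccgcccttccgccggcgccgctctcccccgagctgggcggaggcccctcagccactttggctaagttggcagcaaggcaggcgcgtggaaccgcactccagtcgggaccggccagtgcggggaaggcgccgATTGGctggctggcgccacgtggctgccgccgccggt
The 2 promoters had little in common in composition. That of Hoxd8 was 44.4% G and C with 6 CpG, and that of Hoxd1 was 71.6% with 24, against medians of 52.0% and 6 over 27025 RefSeq promoters of this length. Hoxd8 had AGGTCA 135 bases before the start and CCAAT at 62, and Hoxd1 had CCAAT on the other strand at 37. With the first listed entry kept for a gene that has several, AGGTCA was in 6 of 22 Hox promoters and in 13.8% of all promoters, and CCAAT in 13 of 22 and in 34.5%. The motifs TATAAA (3 of 22, 13% of all), TGATNNAT, a Hox-Pbx site (3 of 22, 7.91%), and TTTATG, a Cdx site (5 of 22, 11.1%), were in neither.

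Hoxa7 was the Hoxa gene with the clearest difference. This factor of thoracic levels had 76, 107 and 92 reads against 48, 18 and 35, or 4.89, 7.23 and 7.29 CPM against 3.48, 1.11 and 2.34. The groups did not overlap, and the log2 fold change of 1.48 (SE 0.46) missed the threshold in edgeR (adjusted p = 0.0852) and passed it in DESeq2 (adjusted p = 0.0173). Mira, a noncoding gene that RefSeq places at chr6:52214491-52215288, had 153, 155 and 139 reads against 73, 22 and 54 (log2 fold change 1.61, SE 0.46, edgeR adjusted p = 0.0695, DESeq2 adjusted p = 0.00655). GENCODE counts that stretch as part of the exons of Hoxa7, so the reads of the 2 genes may be the same in part. Hoxa6, next to Hoxa7, had 19, 14 and 24 reads against 13, 2 and 3 (1.68, SE 0.81, edgeR adjusted p = 0.238). Hoxa5, known from lung and neck patterning, stood at 4.64, 6.96 and 5.47 CPM against 4.72, 2.47 and 4.69, with overlapping groups (0.52, SE 0.36, edgeR adjusted p = 0.407).

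These other tested genes were not called by edgeR or DESeq2 with all tumours in the fit. Hoxa4, a gene of the neck, had 28, 35 and 24 reads against 18, 19 and 17, and Hoxb5 94, 79 and 146 against 70, 44 and 73. Their ranges in CPM did not overlap, with log2 fold changes of 0.74 and 0.85 and edgeR adjusted p of 0.29 and 0.237. Hoxb2, a hindbrain gene, had the lowest fold change of the 24 (-0.97, SE 0.60, edgeR adjusted p = 0.361), with 6, 14 and 6 reads against 14, 28 and 12. Hoxa2, Hoxa3 and Hoxb6 had log2 fold changes between -0.31 and 0.13. The Hoxc genes Hoxc4, Hoxc5 and Hoxc6 had 0.26, 0.26 and 0.19, each with Nf809 far below the rest; without Nf809 those of Hoxc5 and Hoxc6 were -0.24 and -0.33.

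The posterior genes had low counts, at most 41 reads in a tumour apart from Hoxc10 in MiRNC640 (128 reads). Of the 9 genes of groups 9 to 13 with a read, Hoxa9, Hoxa11, Hoxb9, Hoxc9, Hoxc10, Hoxd9 and Hoxd10 had the higher mean CPM in miR155KO_Nf1KO, and Hoxa10 and Hoxc12 in Nf1KO, with overlapping ranges for all but Hoxd9. Hoxa9 had 6, 38 and 41 reads in the miR155KO_Nf1KO tumours and 21, 0 and 36 in the Nf1KO tumours (log2 fold change 0.65, SE 1.20, edgeR adjusted p = 0.78; -0.13 without MiRNC640 and Nf809). Hoxa10 had 5, 10 and 6 reads against 20, 0 and 3, highest in Nf803. Hoxb9 had 16, 3 and 8 against 6, 0 and 0. Hoxb8, of the group next to them, had 13, 8 and 12 against 18, 22 and 12. Hoxd10 had 4 reads in MiRNC149 and 1 in Nf827, Hoxa11 had 1 in MiRNC149, and Hoxc12 had 3 in Nf827.

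The partners of Hox proteins did not show a called change. The TALE homeodomain proteins of the Pbx, Meis and Pknox families bind DNA together with Hox factors. Of the 9 genes 8 were tested and none was called by edgeR or DESeq2, with 2 at an unadjusted p under 0.05, where 26.7% of all genes were, and a median log2 fold change of -0.15. Pbx3 stood at 26.8 ± 2.5 against 29.3 ± 2.0 CPM (-0.13, SE 0.15, edgeR adjusted p = 0.64). Meis1 stood at 10.6 ± 1.29 against 7.85 ± 0.586 CPM and Meis2 at 22.4 ± 4.86 against 16.3 ± 1.83, with log2 fold changes of 0.44 and 0.46 and edgeR adjusted p of 0.238 and 0.223.

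Chromatin regulators that keep Hox genes silent or active showed no called difference. Of 30 Polycomb and Trithorax genes, among them Ezh2, Suz12, Bmi1 and Kmt2a, none was called by edgeR or DESeq2 and 0 had an unadjusted p under 0.05, against 26.7% of all genes by that rule. Their median log2 fold change was -0.02.

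Genes of retinoic acid, the vitamin A derivative that sets the anterior borders of Hox expression in the embryo, changed in both directions. Of 17 tested genes 5 fell and 1 rose by edgeR and by DESeq2, where edgeR called 4.74% of all genes lower and 5.22% higher, with a median log2 fold change of -0.17. Aldh1a3 and Aldh1a2, which make retinoic acid from retinal, were both lower in miR155KO_Nf1KO, at 29.4 ± 13 against 142 ± 32.3 CPM (log2 fold change -2.27, SE 0.37, edgeR adjusted p = 0.0228) and 2.92 ± 2.02 against 11.9 ± 2.03 CPM (-2.02, SE 0.49, edgeR adjusted p = 0.0441). Rdh10, which makes retinal from retinol, fell from 36.8 ± 2.55 to 15.4 ± 4.9 CPM (-1.26, SE 0.26, edgeR adjusted p = 0.0304). Also called were Stra6, the uptake receptor for retinol (-1.65, edgeR adjusted p = 0.0462), and Rxrg, a retinoid X receptor that rose (0.81, edgeR adjusted p = 0.0462). The receptors Rara, Rarb and Rarg were not called, with log2 fold changes of -0.29, -0.22 and -0.14. The macrophage list was lower in the same tumours (416 to 872 against 1240 to 2340 CPM, 5 of 8 genes called lower, against 4.74% of all genes), as was the fibroblast list above, and their part in these levels was not tested. Leaving out MiRNC670, Nf803 or Nf827 ended all 6 calls in the list in edgeR.

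Other regional genes added little to the axial picture. Of 15 ParaHox and posterior patterning genes, which include Cdx1, Cdx2 and Cdx4, 3 had enough reads to test. Lin28b was called higher by edgeR, where 5.22% of all genes were. Lin28b, an RNA-binding protein that blocks the maturation of let-7 microRNAs, had 160, 105 and 126 reads against 31, 46 and 11 (log2 fold change 2.22, SE 0.49, edgeR adjusted p = 0.036). Its call was lost in edgeR without any 1 of the 5 tumours other than Nf809. Of 20 limb and regional factors 7 were tested and none was called by edgeR. Tbx18 was the 1 at an unadjusted p under 0.05, where 26.7% of all genes were. DESeq2 called Tbx18 lower (log2 fold change -1.03, DESeq2 adjusted p = 0.00878), where it called 19% of all genes in either direction. Tbx5, a forelimb and heart factor, had 0, 135 and 23 reads against 28, 0 and 4, highest in MiRNC640 and absent from the reads of MiRNC149 and Nf809. Of 14 head and cranial crest factors 1 had enough reads to test and was not called by edgeR or DESeq2. At an unadjusted p under 0.05 there were 0, against 26.7% of all genes.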

How the data were processed

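RNA from 6 mouse neurofibromas was sequenced. Per the labels' protocols, total RNA was extracted with a Qiagen micro-scale kit and made into Illumina Nextera XT libraries. The authors deposited 1 table of unscaled whole-number read counts per gene symbol, made with HISAT2 2.0.5 and featureCounts 1.5.2 on mm10, per the submitters' processing notes. Which annotation and strand setting were used, and how multi-mapping reads were treated, is not stated in the sources used here.

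Groups and tumour numbers came from the sample titles. Counts were fitted over the whole table with edgeR 4.0.16 in R 4.3.3 (quasi-likelihood test, two-sided, filterByExpr with a minimum count of 10 and a minimum total of 15, TMM scaling, group as the only term). Adjustment was by Benjamini-Hochberg over all 15604 tested genes, and calls were made under an adjusted p of 0.05. CPM uses the TMM-scaled library size, and values are mean ± SD over 3 tumours. Exon lengths and positions are those of GENCODE M21 on GRCm38, 1-based, and all 39 Hox genes matched. Promoters and microRNAs are RefSeq entries of GRCm38.p6, with 22 Hox genes matched for promoters. At this depth a count of 0 stands for under 3 reads, and for higher genes the precision comes from the spread of the tumours. The edgeR, DESeq2 1.42.0 and limma 3.58.1 steps were tested on simulated counts.

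Named Hox genes were those called, the 8 with the highest level per kb, the 6 tested with the largest SD of log2 CPM (prior count 2) and those of the highest paralogue group in each tumour. From the other lists at most 4 called genes were named by the rule, with Pbx3, Meis1 and Meis2. Some genes that the rules and lists take are counted but not reported by name here. Other genes were named after their values were seen. The members and lists were chosen with earlier results of these data known. The alternatives were other scalings, low-count filters, DESeq2, limma voom with and without quality weights, robust edgeR, other definitions of the axial measures, and leaving out tumours.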

Additional observations from a re-analysis of the deposited data

How the results depend on the processing

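Hoxd8 was higher in miR155KO_Nf1KO in all 23 alternatives, with log2 fold changes of 1.55 to 1.93, and the edgeR fits without 1 tumour that ended its call are given with it. The number of Hox genes called higher, 1 in the reported fit, was 3 with DESeq2 and 2 with limma voom with quality weights, and none was called lower in any fit, with 0 lower at an unadjusted p under 0.05. Leaving out 1 tumour at a time, it ran from 0 to 2 in edgeR and from 1 to 5 in DESeq2. The edgeR counts of 0, without MiRNC640, MiRNC670, Nf803 or Nf827, came with 4, 4, 6 and 3 Hox genes at an unadjusted p under 0.05 and with 2, 1, 5 and 3 called by DESeq2. Over all genes, 1554 calls became 2962 with DESeq2 and 2675 with quality weights, and ran from 0 to 2242 in edgeR and up to 3349 in DESeq2 (3205 without MiRNC149) with 1 tumour left out (142 without MiRNC640, and 0 without MiRNC670, Nf803 or Nf827, where 3240, 3335 and 3265 had an unadjusted p under 0.05). The 7 calls in the other lists ran from 0 to 13. Without MiRNC640 and Nf809 together, DESeq2 called 2 Hox genes and 2643 genes in all. The cause was not tested. No paired analysis was possible because the tumour numbers of the groups are not shared. Of 642 settings over 28 named genes, 554 kept direction and side of the threshold, 46 lost a call, 17 gained one and 25 changed sign.

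The sign changes were in 7 Hox genes that edgeR did not call in any of these fits. With 1 tumour left out, edgeR log2 fold changes ran from -0.05 (without Nf827) to 0.21 for Hoxb3, from -0.34 to 0.08 for Hoxb4, from -0.29 to 0.07 for Hoxb7, from -0.24 to 0.68 for Hoxc5 and from -0.33 to 0.55 for Hoxc6. By DESeq2 Hoxb3 was -0.06 without Nf827, Hoxb4 0.07 without MiRNC640 and 0.06 without Nf809, Hoxb7 0.09 without MiRNC670 and 0.03 without Nf827, Hoxc5 -0.1 without MiRNC670 and -0.26 without Nf809, and Hoxc6 -0.35 without Nf809. Without MiRNC640 and Nf809 together, edgeR and DESeq2 gave 0.27 and 0.26 for Hoxb4, -0.21 and -0.22 for Hoxc6, -0.01 and -0.02 for Hoxc8 and -0.13 by both for Hoxa9, and DESeq2 gave -0.01 for Hoxc5.

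The mean paralogue number and the summed Hox level moved by less than the spread in all 24 and 18 alternatives. The highest paralogue group depends on the minimum of reads: at 3 reads it was 10 in MiRNC149, 9 in Nf809 and 12 in Nf827, and at 30 reads 8 in MiRNC149, 9 in MiRNC670 and 8 in Nf803. Counted from group 8, the posterior share was 13.4%, 36.3% and 16.2% in MiRNC149, MiRNC640 and MiRNC670 and 14.9%, 7.43% and 8.94% in Nf803, Nf809 and Nf827, and counted from group 10 it was 0.646%, 8.12% and 1.23% against 1.3%, 0% and 0.824% in the same order. MiRNC640 had the highest share from group 8 and Nf809 the lowest. Depth limits the posterior genes: groups 10 to 13 held 0 to 138 reads per tumour.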
